A study of Mus musculus with 10 samples.

Results

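The genes described here are 10 members of the TGF-beta and BMP signalling pathways, taken by gene symbol from a table of ATAC-seq signal over 21965 mouse genes. They are the ligand genes Tgfb1, Tgfb2, Tgfb3, Bmp2, Bmp4 and Bmp7, the receptor genes Tgfbr1 and Tgfbr2, the inhibitor gene Smad7 and the target gene Id1. All 10 were found, each in 1 row. ATAC-seq reads how open chromatin is from the places where a transposase can insert sequencing adapters, so the values are accessibility and not RNA or protein.

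Every library came from mouse embryonic fibroblasts (MEFs) of E13.5 embryos, labelled as strain ICR and described as carrying a transgene in which the Oct4 promoter drives GFP. All cultures were kept in mESC medium and infected with retroviruses, and about 50000 cells went into each library. The single-factor groups were Sox2, Klf4, Oct4 and the L80A mutant of Oct4 (Oct4-L80A), beside a Flag control. SKO stands for the 3 unmutated factors given at once, and SKO-L80A for the same with the mutant in the place of Oct4. SKO was also given with shBrg1 (SKO+shBrg1), a hairpin RNA named for the chromatin remodeller Brg1. SKO-L80A was also given with vitamin C at 50 µg/ml in the medium (SKO-L80A+Vc) or with Gadd45a as a further virus-borne factor (SKO-L80A+Ga). The labels used here name neither the day of collection nor the share of cells that carried the viruses.

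Each of the 10 conditions had 1 library and 2 columns of values, and the labels do not say how the 2 relate. The columns were counted as 1 replicate, so there is no replicate error, no test was made, and both values are printed. The median gene moved by -0.87 to 0.63 on the log2 scale between columns, measured from the mean of all 20 columns. Differences are therefore given on the log2 scale less the median difference of all genes in the same pair of columns, averaged over both pairs, and "adjusted" levels have the same shift removed. A gene was called when it differed at least 2-fold on that scale and the higher condition mean reached 6.92, the median of all values. The library labelled Oct4 had signals of 62.9 and 55.2 over the Sox2 gene, against 2.73 and 5.12 in Flag, so what is said of it holds for a library that also carried Sox2 signal. Of 10 fibroblast markers, 6 to 8 reached the minimum signal in each condition, of 5 pluripotency markers 0 did in any, and of 5 epithelial markers 0 to 2 did. As deposited, the summed signal of the epithelial markers went from 8.73 in Flag to 31.7 in SKO+shBrg1, and that of the fibroblast markers from 133 to 168. Sums for 3 markers each of blood, endothelium and neural cells went from 8.49 to 21.5, 7.95 to 13.3 and 13.2 to 32.0. The adjusted median of the epithelial markers went from 0.98 to 1.46, and stood at 1.97 in Klf4. The part of other cell types in the values below was not tested. In such bulk libraries, a smaller share of cells with an open gene and less opening per cell cannot be told apart.

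As background, TGF-beta and BMP ligands are secreted dimers that bring type I and type II receptor kinases together. The type I receptor then phosphorylates Smad proteins, which enter the nucleus with Smad4 and bind DNA. In fibroblasts TGF-beta signals favour matrix production and the mesenchymal state. In the reprogramming of fibroblasts, TGF-beta signals are known to oppose the mesenchymal-to-epithelial transition, while BMP signals can favour it.

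In each comparison 0.0% to 1.4% of all genes were called, so few or no calls of accessibility among 10 genes would be near that share. None of the 140 differences (10 genes in 14 comparisons) was called, with Flag as the reference in 9 comparisons and another factor condition in 5. The widest were Bmp7 in the library labelled Oct4, at -0.82 against Flag, Bmp2 in Klf4, at 0.81, and Tgfb3 in Sox2, at -0.69. Over the 10 condition means the range of Bmp2 was 1.97-fold, that of Bmp7 1.85-fold and that of Tgfb3 1.54-fold. The other 7 genes had ranges from 1.21-fold at Smad7 to 1.45-fold at Bmp4, and the 12903 genes that reached the minimum signal somewhere had a median range of 0.44 on the log2 scale. The log2 range was 0.98 at Bmp2 and 0.27 at Smad7, wider than in 93.2% and 9.98% of those genes.

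**Figure D1:**
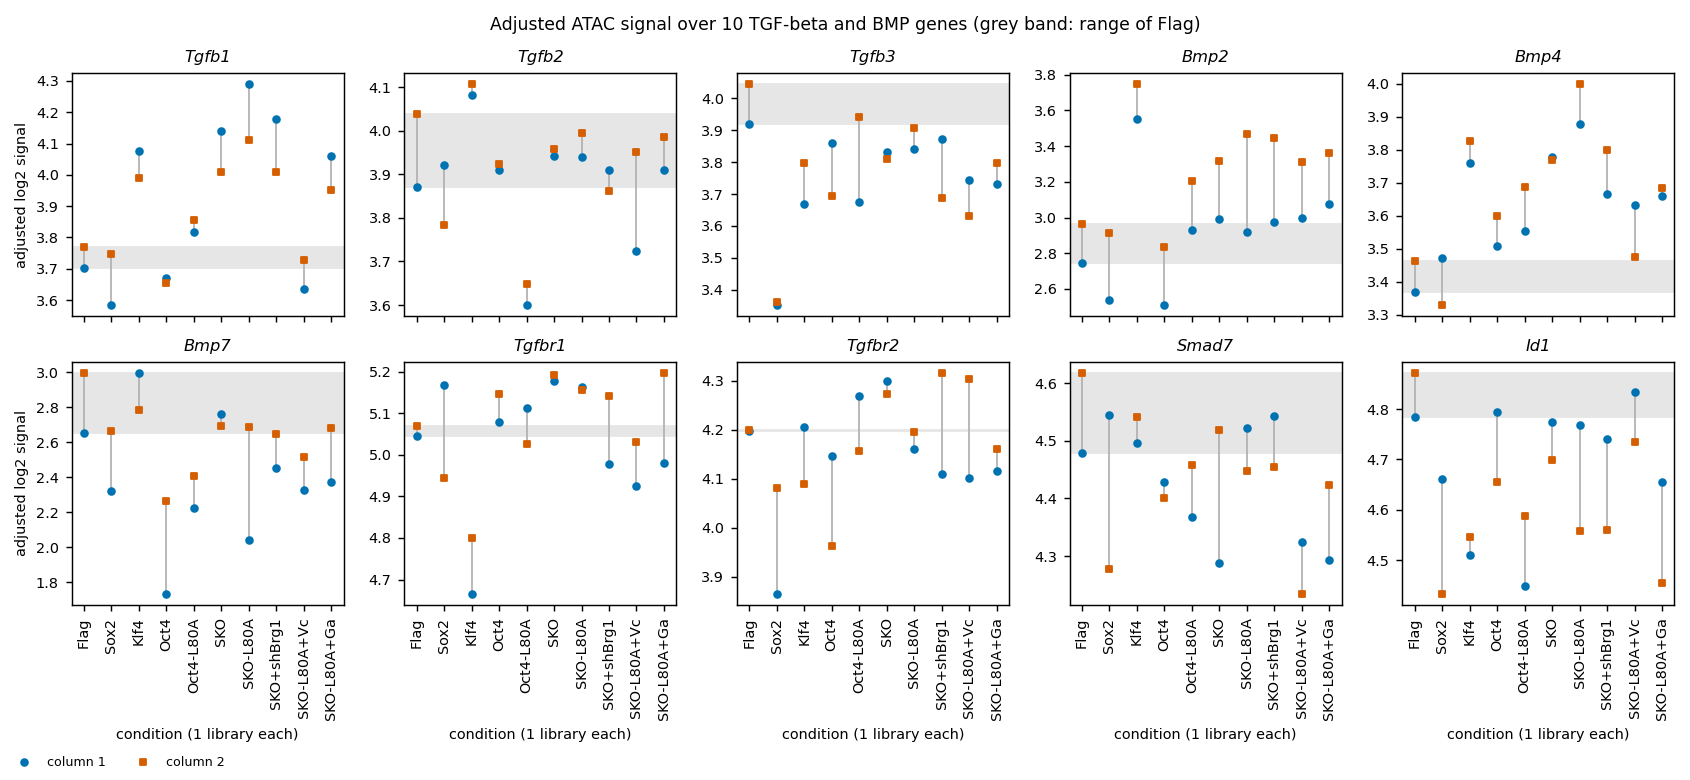
Adjusted log2 ATAC signal (y axis, a separate scale in each panel) of the 10 genes in the 10 conditions (x axis, 1 library each); circles are column 1, squares column 2, lines join them and the grey band spans the 2 Flag columns. Both columns of Bmp2 in Klf4 (3.55 and 3.75) lie above every other column of that gene, and both of Tgfb3 in Sox2 (3.35 and 3.36) lie below. The share of all genes with such a separation was not counted.

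Among the TGF-beta ligands, Tgfb1 encodes the main ligand of this branch, which fibroblasts secrete in a latent form. It lies on chromosome 7, 25687002 to 25705077 (ENSMUSG00000002603; build GRCm38.p6, as for all coordinates here). Its signal was 9.31 and 14.3 in Flag, 7.33 and 13.3 in Sox2, 13.6 and 15.7 in Klf4, and 7.55 and 15.1 in Oct4-L80A. The library labelled Oct4 stood at 11.7 and 13.6. In the combinations it was 24.6 and 18.3 in SKO, 23.0 and 23.4 in SKO-L80A, 27.8 and 19.5 in SKO+shBrg1, 11.7 and 11.8 in SKO-L80A+Vc, and 18.1 and 15.7 in SKO-L80A+Ga. On the adjusted scale the columns of Klf4, SKO, SKO-L80A, SKO+shBrg1 and SKO-L80A+Ga, all given Klf4, lay between 3.95 and 4.29. Those of the other 5 conditions went from 3.58 up to 3.855, the higher end in Oct4-L80A. The 1 other condition given Klf4, SKO-L80A+Vc, lay at 3.64 and 3.73. Its deposited signal over the Klf4 gene was 39.9 and 39.7, beside 45.7 and 45.1 in SKO-L80A+Ga and more in the others given Klf4. For Tgfb1 the median gap between the 2 columns of a condition was 0.10. This grouping was seen in the values, and the share of all genes that split in this way was not counted. Against Flag, Tgfb1 differed by 0.31 in Klf4, 0.35 in SKO, 0.48 in SKO-L80A, 0.36 in SKO+shBrg1, 0.26 in SKO-L80A+Ga and -0.03 in SKO-L80A+Vc, the last turning to the other side on the deposited scale.

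Tgfb2 (ENSMUSG00000039239, chromosome 1, 186622787 to 186709697), a ligand whose receptor binding relies on the co-receptor betaglycan, differed from Flag by -0.38 to 0.15. It had 10.5 and 17.2 in Flag, 13.7 and 17.0 in Klf4, 21.5 and 17.7 in SKO, and 6.48 and 13.03 in Oct4-L80A. The adjusted columns overlapped those of Flag in 7 of 9 conditions, with Klf4 above them and Oct4-L80A (-0.38 against Flag) below them. The Flag columns of Tgfb2 stood at 3.87 and 4.04, wider apart than those of Tgfb1 (3.70 and 3.77), which makes overlap easier. The share of all genes with as much overlap was not counted.

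Tgfb3 (ENSMUSG00000021253, chromosome 12, 86056743 to 86079041), the ligand known for its need in palate fusion, was lowest with Sox2 alone. Its signal was 10.8 and 17.3 in Flag and 6.22 and 10.1 in Sox2, a difference of -0.69 (-0.64 in column 1, -0.73 in column 2) or 1.61-fold. In the other conditions it was 10.2 and 13.7 in Klf4, 6.83 and 16.0 in Oct4-L80A, 19.8 and 15.9 in SKO, 16.8 and 20.3 in SKO-L80A, 22.5 and 15.5 in SKO+shBrg1, 12.6 and 11.0 in SKO-L80A+Vc, and 14.4 and 14.2 in SKO-L80A+Ga. Tgfb3 was below Flag in both columns of all 9 comparisons, by -0.69 to -0.09, but 5 of the 9 turned to the other side on the deposited scale, where the shift of all genes is not removed. These 9 comparisons share the 1 Flag library. In the library labelled Oct4, which also carried Sox2 signal, Tgfb3 stood at 13.4 and 14.03, and the difference was -0.19 (-0.05 and -0.34).

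With Klf4 alone, neither the ligand genes nor the receptor genes shared a direction. Tgfb3 lay below Flag (-0.21 and -0.26 by column), and Bmp7 (0.38 and -0.23) and Tgfbr2 (0.05 and -0.13) differed in direction between columns. The ligand genes Tgfb1 and Bmp4 lay above Flag and the receptor gene Tgfbr1 below it, and the windows before the annotated starts of these genes are shown. Tgfb2 also lay above Flag with Klf4, but its window and that of a second Tgfbr1 start lie inside the annotated gene, and their letters are not printed. Each is the 250 bases before a RefSeq transcript start in GRCm38.p6, from 5′ to 3′ in the direction of the gene. Capitals mark matches to the motifs searched.
Tgfb1 (chr7:25686752-25687001, + strand): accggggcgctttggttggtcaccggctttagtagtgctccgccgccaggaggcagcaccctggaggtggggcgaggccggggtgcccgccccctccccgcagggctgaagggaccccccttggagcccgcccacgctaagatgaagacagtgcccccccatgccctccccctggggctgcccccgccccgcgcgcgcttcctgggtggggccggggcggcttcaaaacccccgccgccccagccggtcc
Bmp4 (chr14:46390670-46390919, - strand): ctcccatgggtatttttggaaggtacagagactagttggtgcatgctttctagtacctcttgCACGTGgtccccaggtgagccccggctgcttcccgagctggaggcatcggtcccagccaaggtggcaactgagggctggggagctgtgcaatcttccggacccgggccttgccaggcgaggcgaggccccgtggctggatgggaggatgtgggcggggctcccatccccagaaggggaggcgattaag
Tgfbr1 (chr4:47352972-47353221, + strand): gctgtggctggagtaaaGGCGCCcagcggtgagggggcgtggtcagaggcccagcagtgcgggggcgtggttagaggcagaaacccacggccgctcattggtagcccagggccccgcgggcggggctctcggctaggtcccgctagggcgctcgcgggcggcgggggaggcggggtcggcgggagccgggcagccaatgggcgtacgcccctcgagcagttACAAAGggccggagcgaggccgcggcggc

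The motifs were looked for on both strands, and none contains another. They were the Smad core element CAGAC (in 42.2% of 32851 promoters of this length), the GC-rich BMP Smad element GGCGCC (9.59%) and the palindromic Smad element GTCTAGAC (0.167%). The others were the octamer ATGCAAAT bound by Oct4 (1.6%), a Sox element ACAAAG (16.5%), a Klf element GGGTGTGG (3.2%), the E-box CACGTG (6.02%) and the TATA box TATAAA (12.4%). The Tgfb1 window held 0 matches and the Bmp4 window an E-box from -188 to -183, counted back from the base before the start as -1. The printed Tgfbr1 window held the GC-rich BMP Smad element from -233 to -228 and the Sox element from -29 to -24, and that of the second start the Smad core element from -203 to -199 and the Sox element from -22 to -17. Tgfb2 had the most matches, with the Smad core element from -221 to -217 and from -204 to -200, an E-box from -51 to -46 and a TATA box from -31 to -26. On its opposite strand were the Klf element from -141 to -134, the 1 match to it among the 6 windows of the members, and the Sox element from -67 to -62. The Tgfbr2 window held the Smad core element from -160 to -156. In G and C content the windows stood at 75.2% for Tgfb1, 63.2% for Bmp4, 74.8% and 52.8% for the 2 of Tgfbr1, 53.6% for Tgfb2 and 58.4% for Tgfbr2, with a median of 52.4% over all promoters. The RefSeq promoter table held 5 of the 10 genes; Tgfb3, Bmp2, Bmp7, Smad7 and Id1 were not matched. The windows say nothing of where in each gene the ATAC signal lay.

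Among the BMP ligands, Bmp2 (ENSMUSG00000027358, chromosome 2, 133552159 to 133562896), a ligand known for driving bone formation, had the widest range. Its signal was 4.73 and 8.09 in Flag and 9.40 and 13.2 in Klf4, so that both Klf4 columns exceeded both Flag columns as deposited. The difference was 0.81 (0.84 in column 1, 0.77 in column 2) or 1.75-fold, and it lay above 97.9% of the genes at the minimum signal in that comparison. Bmp2 had 3.48 and 7.39 in Sox2 and 4.03 and 9.56 in Oct4-L80A. The library labelled Oct4 stood at 5.17 and 7.67. In the combinations it had 11.0 and 11.3 in SKO, 8.81 and 14.9 in SKO-L80A, 11.98 and 13.1 in SKO+shBrg1, 7.44 and 8.80 in SKO-L80A+Vc, and 9.12 and 10.4 in SKO-L80A+Ga. In these combinations, each given Klf4 with other factors, the difference from Flag lay between 0.31 and 0.36. On the adjusted scale Klf4 came first, the combinations overlapped one another and Oct4-L80A, and Flag, Sox2 and the library labelled Oct4 overlapped at the low end. Of the combinations, SKO-L80A reached down into the Flag columns, the higher of which stood at 2.96. The other 4 did not, but their columns began at 2.97, in SKO+shBrg1. For Bmp2 the median gap between the 2 columns of a condition was 0.32, so this separation is slight. The share of all genes without such overlap was not counted.

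Bmp4 (ENSMUSG00000021835, chromosome 14, 46383525 to 46390669), the BMP used to keep mouse embryonic stem cells in culture without serum, lay above Flag in both columns of 8 comparisons. The exception was Sox2, at 0.03 and -0.18, and Oct4-L80A turned to the other side on the deposited scale. The signal was 7.36 and 11.5 in Flag, 6.77 and 9.90 in Sox2, 10.9 and 13.98 in Klf4, and 6.27 and 13.4 in Oct4-L80A. The library labelled Oct4 stood at 10.5 and 13.1. Bmp4 signal was 19.1 and 15.5 in SKO, 17.3 and 21.7 in SKO-L80A, 19.5 and 16.8 in SKO+shBrg1, 11.6 and 9.87 in SKO-L80A+Vc, and 13.7 and 13.1 in SKO-L80A+Ga. The 8 differences went from 0.15 in the library labelled Oct4 to 0.54 in SKO-L80A, or 1.46-fold. All use the same Flag library.

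Bmp7 (ENSMUSG00000008999, chromosome 2, 172868012 to 172940321), a ligand of kidney development and of epithelial maintenance, had the widest difference in the other direction. The signal was 4.43 and 8.30 in Flag against 2.97 and 5.11 in the library labelled Oct4, a difference of -0.82 (-0.91 and -0.73) or 1.76-fold. In Oct4-L80A it was 2.42 and 5.43, a difference of -0.56 (-0.52 and -0.59). Neither comparison reached the minimum signal, since the Flag mean was 6.36, and against Flag only SKO and SKO+shBrg1 did for this gene. Sox2 had 2.98 and 6.19 (-0.39), Klf4 6.36 and 6.71 (0.38 and -0.23 by column), SKO 9.41 and 7.29 (0.09 and -0.27), SKO-L80A 4.75 and 8.67 (-0.44), and SKO+shBrg1 8.33 and 7.48 (-0.27). SKO-L80A+Vc had 4.63 and 5.01 (-0.38) and SKO-L80A+Ga 5.56 and 6.46 (-0.31). On the deposited scale SKO, SKO-L80A and SKO+shBrg1 turned to the other side. The 2 columns of SKO-L80A were 0.65 apart on the adjusted scale, the widest gap of any gene and condition here, and they spanned most of the range between conditions.

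The receptor genes differed less. Tgfbr1 (ENSMUSG00000007613, chromosome 4, 47353222 to 47414926) encodes the type I receptor kinase. Its signal was 23.8 and 35.3 in Flag, 20.5 and 27.5 in Klf4 and 50.7 and 41.8 in SKO, and over all columns it went from 18.7 to 50.7 with a median of 34.3. Klf4 was the condition furthest from Flag, at -0.31 (-0.34 and -0.28), and its adjusted columns were below those of every other condition. The share of all genes for which Klf4 stands apart in this way was not counted. Of the genes at the minimum signal in that comparison, 18.3% lay lower still, with a median of -0.10 and a lower quartile of -0.26. Over the alternative ways of processing, Tgfbr1 in Klf4 stayed between -0.34 and -0.11. The other 8 differences from Flag lay between -0.06 and 0.13. Tgfbr2 (ENSMUSG00000032440, chromosome 9, 116087695 to 116175363), which encodes the ligand-binding type II receptor, had 13.2 and 19.3 in Flag and 8.93 and 16.8 in Sox2, with -0.29 between them. Over all columns it went from 8.93 to 27.5, and its other 8 differences from Flag lay between -0.13 and 0.09.

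Smad7 (ENSMUSG00000025880, chromosome 18, 75367365 to 75395935) encodes the inhibitory Smad that TGF-beta signals themselves induce, and Id1 (ENSMUSG00000042745, chromosome 2, 152736251 to 152737410) encodes a helix-loop-helix inhibitor that is a classic BMP target. Smad7 had 16.1 and 25.8 in Flag and went from 11.1 to 35.9 over all columns, with a median of 22.4. Its differences from Flag lay between -0.25 in SKO-L80A+Vc and -0.02 in Klf4, all below 0, but 6 of 9 turned to the other side on the deposited scale. Id1 had 19.9 and 30.8 in Flag, 15.6 and 21.4 in Sox2, 18.4 and 23.1 in Klf4, 11.8 and 25.1 in Oct4-L80A and 38.3 and 29.7 in SKO. It too lay below Flag in all 9 comparisons, by -0.36 in Oct4-L80A, -0.34 in Sox2, -0.29 in Klf4 and in SKO-L80A+Ga, and less in the others, and 6 of these turned to the other side on the deposited scale.

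**Figure D2:**
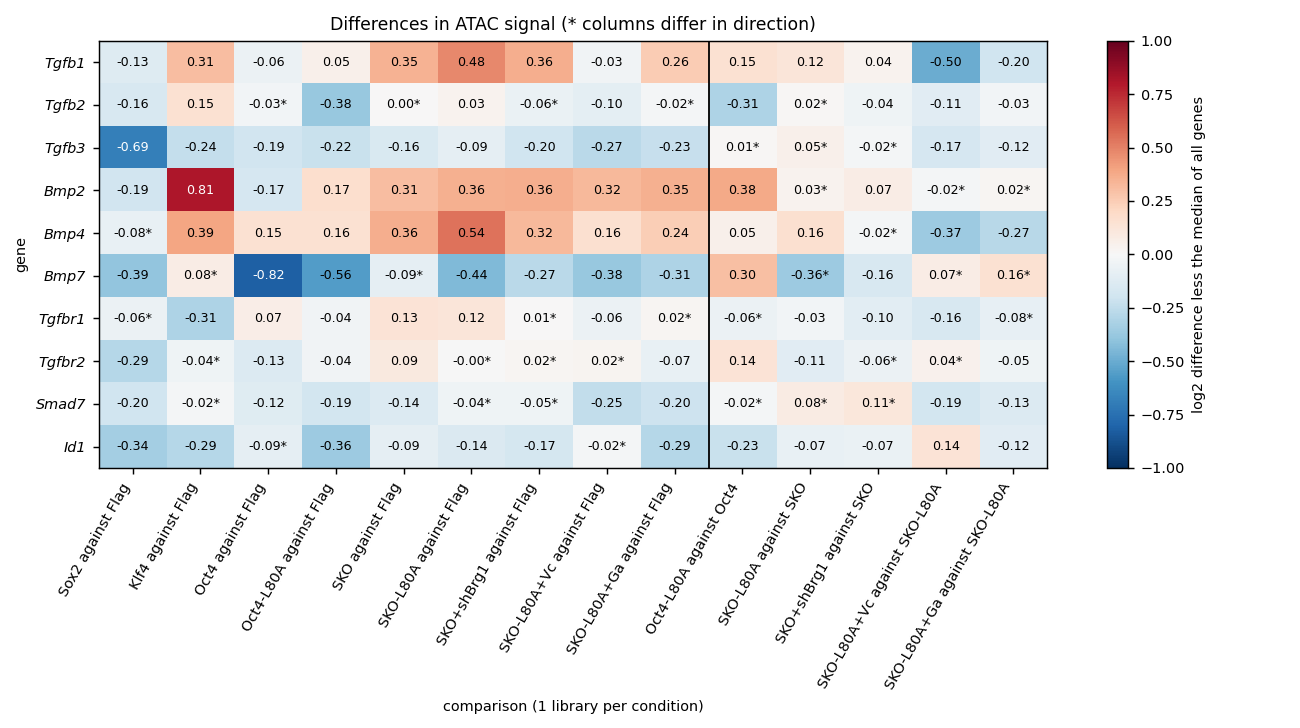
Log2 difference in ATAC signal less the median of all genes, for the 10 genes (y axis) in 14 comparisons (x axis, 1 library per condition); colour and number give the mean of both columns, an asterisk marks columns that differ in direction, and the vertical line separates comparisons with Flag from the rest. The darkest cells are Bmp2 in Klf4 (0.81), Bmp7 in Oct4 (-0.82) and Tgfb3 in Sox2 (-0.69).

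By comparison, Sox2 against Flag asked what that factor does alone. Of the 10 genes 0 were called, where 0.168% of all genes were. At a looser size, at least 1.5-fold in both columns, Tgfb3 was lower, as were 0.442% of all genes. Of 8 members at the minimum signal, 6 lay below Flag in both columns (Tgfb1, Tgfb2, Tgfb3, Tgfbr2, Smad7 and Id1), as did 53.6% of the 10678 genes at that signal, and 0 lay above it in both (16.4% of genes). The member median was -0.19 and that of the genes at the minimum signal -0.14, so the shared direction was near the background.

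Klf4 alone gave 0 calls among the members and 0.874% of all genes. Bmp2 passed the looser size, as did 1.38% of all genes on the higher side. Above Flag in both columns were Tgfb1, Tgfb2, Bmp2 and Bmp4, 4 of 9 members at the minimum signal, against 23.7% of genes. Below it were Tgfb3, Tgfbr1 and Id1, against 47.0% of genes. Of the others at the minimum signal, Tgfbr2 and Smad7 differed in direction between columns. The member median was 0.03 and that of genes at the minimum signal -0.10.

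In the library labelled Oct4, 0 members and 0.255% of all genes were called against Flag. Bmp4 and Tgfbr1 were above Flag in both columns (38.3% of genes at the minimum signal), and Tgfb1, Tgfb3, Tgfbr2 and Smad7 were below it (21.7%), all 4 of which turned to the other side on the deposited scale. Oct4-L80A gave 0 members and 0.0182% of genes; Tgfb1 and Bmp4 were above Flag in both columns (10.7% of genes), though not on the deposited scale, and 6 of 8 members were below it (55.3%). When Oct4-L80A was set against the library labelled Oct4, 0 members and 0.209% of genes were called. There Bmp2 was higher by 0.38 (0.39 and 0.37), Bmp7 by 0.30 (0.46 and 0.14) and Tgfb1 by 0.15, while Tgfb2 was lower, at -0.31 (-0.34 and -0.28). Bmp2 and Bmp7 were under the minimum signal in this comparison; of the 8 members at it, 3 were above in both columns (9.53% of genes) and 2 below (48.3%). On the deposited scale Bmp2 and Bmp7 turned to the other side here (-0.02 and -0.10). So did all 3 members counted above, Tgfb1 (-0.24), Bmp4 (-0.35) and Tgfbr2 (-0.26). Sox2 signal differs between these libraries as well as the mutation, and the parts of each cannot be told apart.

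SKO against Flag asked what the factors do together. Of the members 0 were called and of all genes 1.33%, and 5 of 10 members lay above Flag in both columns (Tgfb1, Bmp2, Bmp4, Tgfbr1 and Tgfbr2), as did 43.8% of genes at the minimum signal, and 3 of 10 lay below it (19.8%). SKO-L80A against Flag gave 0 members and 1.4% of genes, with 5 of 9 members above (48.9% of genes) and 2 below (17.1%). SKO+shBrg1 against Flag gave 0 and 1.36%, with Tgfb1, Bmp2 and Bmp4 above (45.5%) and Tgfb3, Bmp7 and Id1 below (18.6%). Each member counted below Flag in these 3 comparisons turned to the other side on the deposited scale. In these comparisons Tgfb1 differed by 0.35, 0.48 and 0.36, Bmp2 by 0.31, 0.36 and 0.36, and Bmp4 by 0.36, 0.54 and 0.32. The median gene itself moved by 0.53, 0.52 and 0.64, and without removing that shift Tgfb1 and Bmp4 pass the 2-fold size in SKO-L80A (1.00 and 1.06), and Tgfb1 and Bmp2 in SKO+shBrg1 (1.00 and 1.00).

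Within SKO, the exchange of Oct4 for the mutant and the Brg1 hairpin left the members close to SKO. SKO-L80A against SKO had 0 members and 0.00911% of genes called. Of 10 members, Tgfb1 and Bmp4 were above SKO in both columns (24.5% of genes) and 3 were below it (23.6%). Bmp4 was higher by 0.16 and Tgfb1 by 0.12 (0.12 and 0.12), while Bmp7 had -0.75 in column 1 and 0.02 in column 2. SKO+shBrg1 against SKO had 0 members and 0.00455% of genes called, with differences from -0.16 at Bmp7 to 0.11 at Smad7. There 2 of 10 members were above SKO in both columns (34.9% of genes) and 4 below it (18.9%), of which Tgfb2 and Id1 turned to the other side on the deposited scale. The quartiles of all genes at the minimum signal were -0.04 and 0.09.

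Vitamin C and Gadd45a were each added to SKO-L80A. With vitamin C, 0 members and 0.00911% of genes were called. Tgfb1 was lower, at -0.50 (-0.63 and -0.37), below all but 1.06% of the genes at the minimum signal, and so was Bmp4, at -0.37 (-0.23 and -0.51). Id1 was higher by 0.14 (0.09 and 0.19) and was the member above SKO-L80A in both columns, as were 12.5% of genes, but on the deposited scale it stood at -0.34. On the adjusted scale 6 of 9 members were below SKO-L80A (50.5%). With Gadd45a, 0 members and 0.0% of genes were called, and 7 of 9 members were below SKO-L80A in both columns (42.0% of genes) and 0 above (13.2%). There Bmp4 differed by -0.27 (-0.23 and -0.32), Tgfb1 by -0.20 (-0.24 and -0.17) and Id1 by -0.12. Both comparisons share the SKO-L80A library, which had the highest adjusted level of Tgfb1 and of Bmp4 among the 10 conditions. As deposited, signal over the factor genes differed as well. Over Klf4 it was 62.6 and 83.5 in SKO-L80A, 39.9 and 39.7 with vitamin C, and 45.7 and 45.1 with Gadd45a. Over Sox2 it was 38.5 and 51.8, 22.0 and 22.5, and 28.6 and 28.0. Signal over Pou5f1, the Oct4 gene, was also lower with each addition. The parts of the additions and of the factor signal cannot be told apart. Against Flag, 0 members were called in SKO-L80A+Vc (0.961% of genes) and in SKO-L80A+Ga (0.829%). In SKO-L80A+Vc 2 of 9 members were above Flag in both columns (26.5% of genes) and 5 below (28.5%), and in SKO-L80A+Ga 3 of 9 were above (30.3%) and 4 below (25%), the last 4 not so on the deposited scale. In these conditions Bmp4 differed by 0.16 and 0.24, Tgfb1 by -0.03 and 0.26 and Bmp2 by 0.32 and 0.35.

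**Figure D3:**
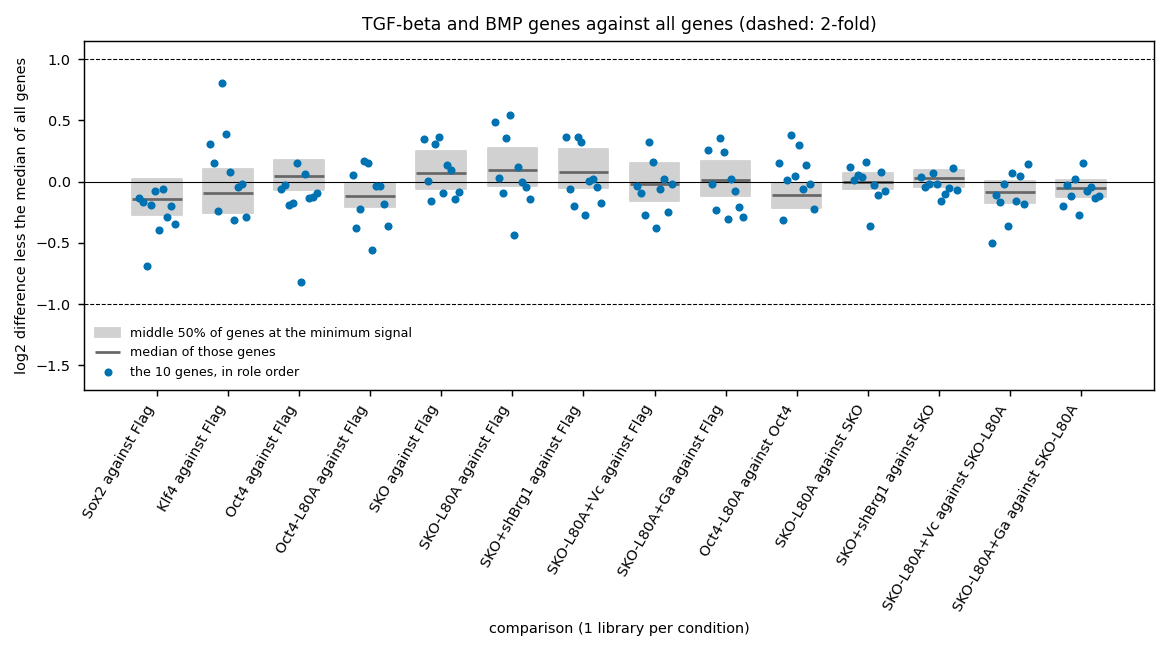
Log2 difference less the median of all genes (y axis) in the 14 comparisons (x axis); points are the 10 genes in the order ligands, receptors, Smad7 and Id1, grey boxes run from the lower to the upper quartile of the genes at the minimum signal, bars their median and dashed lines 2-fold. No point passes a dashed line, and in SKO against Flag the points lie between -0.16 and 0.36.

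By likeness over the 10 condition means on the adjusted scale, Bmp2 was closest to Hoxd13, a homeobox gene of the distal limb (Pearson r of 0.98), Wdr82 (0.97), which encodes a subunit of a histone H3K4 methyltransferase complex, and Gpr17 (0.96), a receptor gene. For Bmp7 the closest were Sem1 (0.93), a small proteasome subunit gene, Rsl24d1 (0.87), a ribosome assembly factor gene, and Prr5l (0.87). For Tgfb3, Stard7 and Ints8 each stood at 0.95. These are among the highest of 12903 genes over 10 points that share their libraries, so they describe the profiles only. Within the group, Bmp2 had r of 0.71 with Bmp4 and 0.70 with Tgfb1, and -0.58 with Tgfbr1.

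A wider list of 102 pathway genes by role, all in the table, was set beside the members. With the library labelled Oct4 and with Sox2, Klf4 and Oct4-L80A alone, 0 of the 102 were called against Flag. In SKO, SKO-L80A and SKO+shBrg1 2 were called, both higher, Gdf3 and Fstl3, or 1.96% of the list beside 1.33%, 1.4% and 1.36% of all genes. In SKO-L80A+Vc 1 was called, Fstl3, and in SKO-L80A+Ga 1, Gdf3. In the 5 comparisons without Flag 0 were called. The list median against Flag, on a scale where the median of all genes is 0, lay between 0.00 in Oct4-L80A and 0.15 in SKO-L80A, and 0 genes were called lower in any comparison. With no minimum signal, 2 of the 102 were called higher than Flag in the library labelled Oct4, 2 in Klf4 and 2 in Oct4-L80A. In Sox2 0 were. Of all genes 1.54%, 3.16%, 0.883% and 1.61% were called in these 4 under that setting.

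Gdf3, a ligand of the nodal branch made by pluripotent cells, had 0.933 and 0.585 in Flag, 0.614 and 0.912 in Sox2 and 0.760 and 0.889 in Klf4. The library labelled Oct4 stood at 5.31 and 4.64, and Oct4-L80A at 1.62 and 2.05. In the combinations it had 10.5 and 6.61 in SKO, 8.39 and 7.94 in SKO-L80A, 8.83 and 5.17 in SKO+shBrg1, 6.88 and 4.98 in SKO-L80A+Vc, and 7.99 and 6.32 in SKO-L80A+Ga. As deposited, the columns of the combinations lay above those of Flag, Sox2, Klf4 and Oct4-L80A without overlap. They overlapped those of the library labelled Oct4, since SKO-L80A+Vc reached down to 4.98. The share of all genes that separate in this way was not counted. SKO against Flag was 6.66-fold and SKO-L80A 6.58-fold, and SKO-L80A+Vc was not called because its mean missed the minimum signal. In the library labelled Oct4 both Gdf3 columns were also under that minimum, 6.92, so the gene could not be called there. Fstl3, which encodes a secreted binder of activin and related ligands, had 11.9 and 14.7 in Flag, 26.9 and 29.6 in the library labelled Oct4, 51.8 and 35.5 in SKO, and 44.6 and 40.6 in SKO-L80A, or 2.23-fold and 2.24-fold above Flag in the last 2. It had 9.00 and 18.6 in Oct4-L80A, lower than the library labelled Oct4 by 1.65-fold, at the looser size in both columns.

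In Klf4 against Flag 1 of the 102 genes of the list was higher at the looser size, beside 1.38% of all genes. On the lower side 3 of the 102 passed it, beside 0.742% of all genes. Bmp8a, a BMP ligand gene of the germline, was higher, with 8.95 and 9.99 against 4.62 and 6.64 (0.73). Fn1, the fibronectin gene and a TGF-beta target, was lower, with 15.0 and 19.9 against 25.9 and 41.4 (-0.94). Ltbp1, whose product holds latent TGF-beta in the matrix, was lower too, with 7.68 and 10.5 against 13.4 and 18.7 (-0.83). In other conditions Tgif2 in SKO, Dcn in SKO-L80A, Amhr2 in SKO+shBrg1 and Bmp6 in SKO-L80A+Vc were higher than Flag at the looser size, by 1.65-fold, 1.73-fold, 1.62-fold and 1.59-fold. Counting the genes called above, the list had 3, 3, 3 and 2 genes higher at that size, beside 2.75%, 2.94%, 2.93% and 1.56% of all genes, so these shares were near the background.

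**Figure D4:**
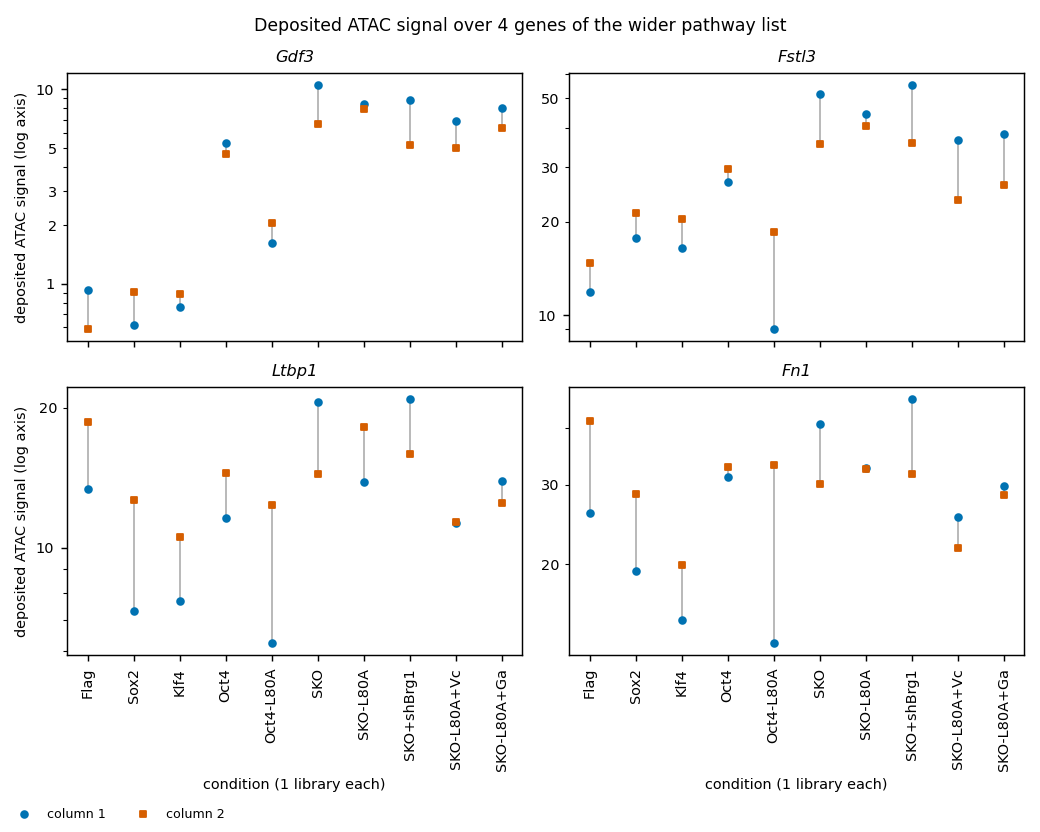
Deposited ATAC signal (y axis, logarithmic, a separate scale in each panel) of 4 genes of the wider list in the 10 conditions (x axis, 1 library each); circles are column 1 and squares column 2. Gdf3 stands at 0.585 to 0.933 in Flag and 5.17 to 10.5 in SKO and SKO+shBrg1, and the 2 Klf4 columns of Fn1 (15.0 and 19.9) lie below both Flag columns.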

How the data were processed

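The authors deposited a table of ATAC-seq signal per gene, in 20 columns for 10 conditions. The signal is named a density in the deposited file; its window and scaling were not given in the sources. Per the submitters' processing notes, the build was mm10 and the tools included Bowtie2 2.2.5, MACS2 2.1.0, deepTools, bedtools 2.25.0, Picard, Trimmomatic 0.35, SAMtools 1.3.1 and cutadapt 1.13, with no step named for any. No read numbers stand in the file: depth is unknown and intervals for counting error could not be given.

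From these values log2(signal + 0.138) was taken, the pseudocount being the 10th percentile of values above 0, and differences and calls were made as the report states (Python 3.11.15, numpy 2.4.6, pandas 2.3.3). Folds are on the scale with the pseudocount, which understates changes of low genes. Adjusted levels had the median difference of each column from the mean profile removed. Alternatives were a pseudocount 4 times larger or smaller, no minimum signal, no removal of the all-gene shift, quantile normalisation, lowess (statsmodels 0.14.6, fraction 0.3, 3 iterations) and each column alone. A further alternative, the median of genes at the minimum signal as reference, was chosen after seeing the data. The call was tested on simulated data. All 10 genes are named, with wider-list genes called in a comparison (at most 4 by size), or past the looser size, and, for the 3 genes of widest range, the 3 most alike; 2 genes these rules name are not reported here. Members, lists and the looser size were chosen with earlier results of these data known. Ccn2 was found as Ctgf; coordinates and promoters come from RefSeq, GRCm38.p6.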

Additional observations from a re-analysis of the deposited data

Results flagged for a closer look

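With the all-gene shift removed, Tgfbr2, the type II receptor gene, differed in direction between the comparisons of the L80A mutant with Oct4. Alone, Oct4-L80A was above the library labelled Oct4 by 0.14 on the log2 scale (0.09 and 0.19 by column). Over the Sox2 gene this mutant library read only 2.37 and 5.47, far under the 62.9 and 55.2 of its reference. Sox2 signal thus changed along with the mutation, and their parts in the Tgfbr2 difference cannot be separated. With Sox2 and Klf4, SKO-L80A differed from SKO by -0.11 (-0.17 and -0.06). On the deposited scale, with the all-gene shift left in, the Tgfbr2 differences were -0.26 and -0.11, in the same direction. The difference between these settings was not tested, and each rests on 1 library per condition. For this gene the 2 columns of 1 condition lay up to 0.21 apart, in Sox2.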

How the results depend on the processing

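The count of called members was 0 in all 14 comparisons, and of its 126 values under the 9 alternatives 124 were also 0. On the deposited scale, with the all-gene shift left in, 2 members were called in SKO-L80A against Flag and 2 in SKO+shBrg1 against Flag, which follows from adding shifts of 0.52 and 0.64. For all genes that scale gave 1370 higher and 4 lower in SKO against Flag in place of 274 and 19, 1379 and 4 in place of 288 and 19 in SKO-L80A, and 2222 and 4 in place of 278 and 21 in SKO+shBrg1. In the library labelled Oct4 it gave 79 and 6 in place of 41 and 15, in SKO-L80A+Ga 361 and 4 in place of 171 and 11, and in Oct4-L80A 1 and 9 in place of 2 and 2. Oct4-L80A against the library labelled Oct4 had 0 and 171 in place of 2 and 44, and SKO-L80A+Vc against SKO-L80A 0 and 103 in place of 0 and 2. Of the 102 wider-list genes it called 7, 9 and 13 higher in SKO, SKO-L80A and SKO+shBrg1 in place of 2 each. Quantile normalisation called 1 in each of these and 0 in SKO-L80A+Ga, and column 2 alone called 1 in SKO and SKO+shBrg1 and 0 in SKO-L80A+Vc and SKO-L80A+Ga. For all genes, quantile normalisation gave 127 higher and 41 lower in SKO against Flag, 142 and 42 in SKO-L80A, 120 and 45 in SKO+shBrg1, and 28 and 27 in the library labelled Oct4. With no minimum signal lower calls outnumbered higher ones in SKO (470 and 718), SKO-L80A (494 and 714) and SKO+shBrg1 (462 and 1202). Without it SKO-L80A+Vc had 464 and 241, SKO-L80A+Ga 408 and 205, Klf4 597 and 97, Sox2 260 and 93 in place of 14 and 23, and Oct4-L80A against the library labelled Oct4 682 and 126. Bmp2 in Klf4 against Flag stayed between 0.76 and 0.90 over the alternatives, Tgfb3 in Sox2 between -0.78 and -0.56, and Bmp7 in the library labelled Oct4 between -0.91 and -0.62. No paired analysis was possible because each condition has 1 library: like-numbered columns were set against each other, but both count as 1 replicate. Unknown depth and the unknown relation of the columns limit every value.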
